A study of Mus musculus with 4 samples.

Results

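The RNA exosome, the deadenylases and the other mRNA decay factors were followed in cytoplasmic RNA of Neuro2A cells, a mouse neuroblastoma line. The genes were taken by name: symbols beginning with Exosc, Cnot, Smg and a digit, Upf or Edc, and 20 further factors of exosome targeting, decapping, deadenylation and 5′ decay. This gave 109 of the 45101 probe sets on the array and 49 genes. Of these, Tent4a and Tent4b were matched through their older names Papd7 and Papd5. Another 4 probe sets, of Pcsk1n and Tcf3, carry Pan3 or Pan2 only as old aliases and were left out, because these are now the symbols of other genes. No probe set with a single symbol was analysed here for Cnot1, Upf3a or Upf3b. The study used 2 arrays of cells in which 4.5SH, a small noncoding RNA of rodents, had been depleted, and 2 arrays of control cells. Both groups are the same cell line, both are labelled as biological replicates, and the protocol gives transfection of antisense oligonucleotides at 30 nM for all samples. 4.5SH itself was not analysed here. The sources used here do not name the control oligonucleotide, so loss of 4.5SH and other effects of transfection cannot be told apart. Nothing says that the replicates came from separate cultures, so the p-values reflect only how far these arrays differ, which may be technical.

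Messenger RNA is usually degraded after its poly(A) tail has been shortened. The PAN2-PAN3 and CCR4-NOT complexes remove the tail, after which the RNA is either decapped and digested from its 5′ end by XRN1 or digested from its 3′ end by the exosome. The exosome is a ring of inactive subunits with nucleases attached, and it works in the nucleus and the cytoplasm with different helicases and adaptors. Nonsense-mediated decay directs messages with a premature stop codon into these routes. In neurons, nonsense-mediated decay is known to limit messages for synaptic proteins, and rodent 4.5SH RNA resides in the nucleus. The roles given below are those known from mammalian cells, in several cases first from yeast.

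Values are MAS5 signals, a summary of 1 probe set's brightness on a linear scale. They were compared as log2(signal + 16) on the deposited scale with limma, over 22519 probe sets above a signal of about 16.4. A second fit over 11804 genes took each gene's brightest tested probe set. "Rose" and "fell" are used for an adjusted p under 0.05. A standard error from limma follows each ± (2 arrays per group), and adjusted p-values of single probe sets are from the fit over probe sets. Among the members, 85 probe sets and 48 genes were tested. The other 24 probe sets were too dim, among them the only one of Exosc6, a ring subunit, which read 5.6 and 3.1 in the knockdown, against 17.6 and 4.7 in the control.

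The trimmed mean signal was 128 and 132 on the knockdown arrays and 149 and 143 on the control arrays, and all tested genes had a median log2 fold change of -0.16. A change of that size is therefore typical of the arrays, and the calls below were repeated under 5 scalings: the deposited one, quantile scaling, and centring on all probe sets, on the tested ones or on the spike-in controls. As a sign of RNA integrity, the Gapdh 3′ to 5′ ratio was 0.833 and 0.787 on the knockdown arrays, against 0.884 and 0.861 on the control arrays. For Actb it was 2.47 and 2.49, against 2.60 and 2.78, and the Actb gene itself read 7669 and 7274.5 against 7388 and 6880.1 (0.07 ± 0.05), which did not pass. Of 12 neuroblastoma and neuron markers 7 were tested. The sympathetic transcription factors Phox2a (1069 and 1070.2 against 1248 and 1268, knockdown against control) and Hand2 (1419 and 1474 against 1532 and 1631) were bright, while Th, Gata3, Nefl and Nefm lay below the filter. Summed signals of 3 leukocyte markers were 342 and 361 against 652 and 738. Nearly all of this was the lysosomal gene Cd68, with the defining leukocyte gene Ptprc at 0.4 and 0.6 against 8.1 and 0.3. Sums were 36 and 52 against 57 and 78 for 3 astrocyte markers, 53 and 65 against 53 and 56 for 3 fibroblast markers, and 76 and 84 against 160 and 130 for 2 endothelial ones. The 4 listed nuclear RNAs did not move together. Malat1 read 76.1 and 50.2 in the knockdown, against 434 and 417 in the control (-2.50 ± 0.14) and Neat1 22.8 and 12.9 against 41.2 and 37.2 (-0.72 ± 0.23), and both fell. Xist, the RNA of X inactivation, rose, at 164 and 191 in the knockdown, against 15.3 and 12.5 in the control (2.69 ± 0.17), and Meg3, at 21.6 and 20 against 8.1 and 18.3 (0.36 ± 0.26), did not pass. The part of these differences in the results below was not tested.

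Taken gene by gene, decay factors were more often lower than higher in the knockdown. Of 48 tested genes 26 fell (54.2%), 7 rose (14.6%) and 15 did not pass. Among all tested genes 35.2% fell and 9.79% rose. The median log2 fold change was -0.26 over the decay factors and -0.16 over all tested genes. Counted as probe sets, 33 of 85 fell (38.8%) and 13 rose (15.3%), against 25.8% lower and 9.73% higher among all tested probe sets. The balance of the member probe sets turned with the scaling. With quantile scaling 16 fell and 21 rose, where 16.6% and 16.9% of all probe sets did, and centred on the tested probe sets 21 fell and 20 rose, where 17.5% and 16.8% of all did. Decay factors were bright as a group, with 60 of their 109 probe sets in the brightest 25%. There 50% of these 60 fell and 21.7% rose, against 42.3% and 13.9% of all probe sets of that class. Lack of overlap between the groups was more common than a call, with 43 of the 85 tested member probe sets lower and 25 higher. Its share over all probe sets was not counted. Some genes detailed below were chosen partly by it, so it is a description only. At the brightest probe set of each gene, the largest changes were a rise of 1.73-fold for the deadenylase gene Cnot7 and a fall to 0.566-fold for the exosome gene Exosc2.

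**Figure D1:**
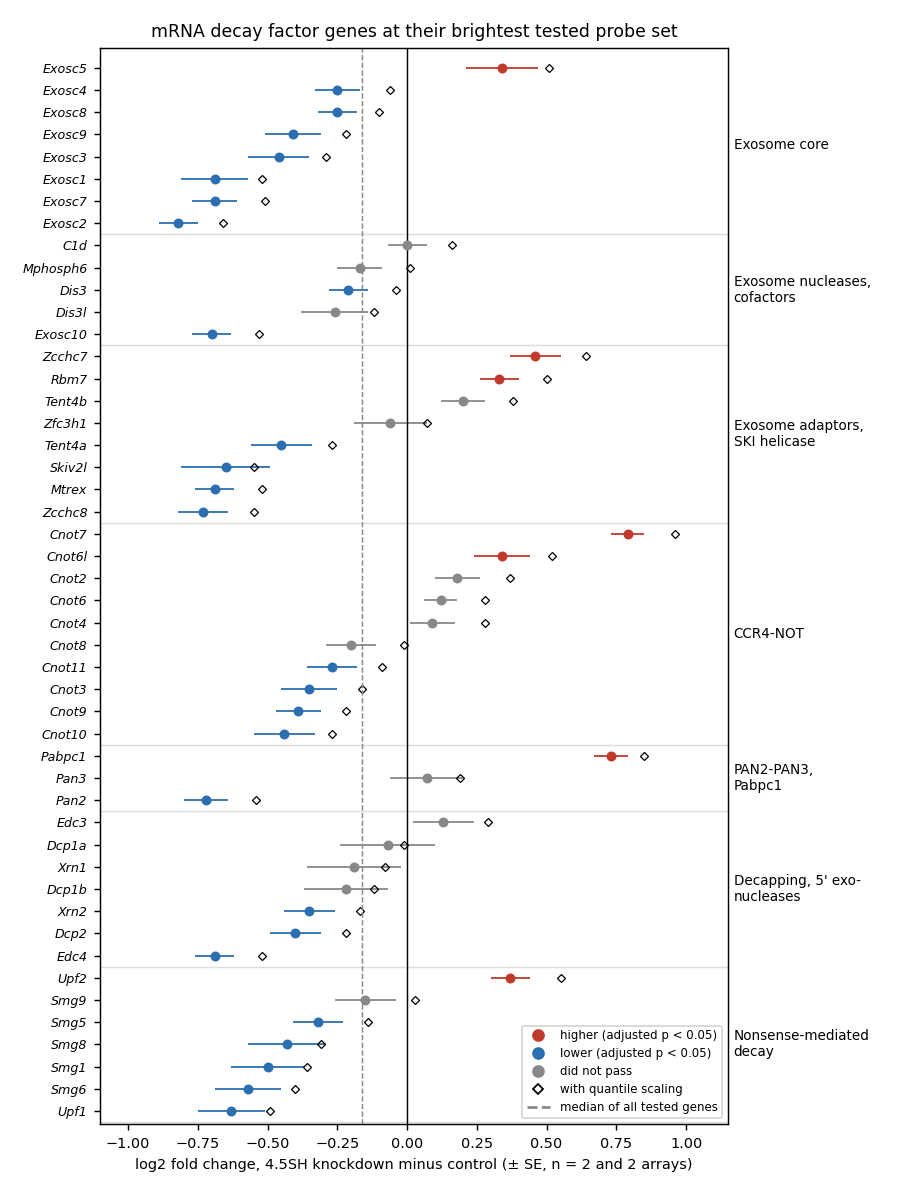
Log2 fold change (4.5SH knockdown minus control, ± SE, n = 2 and 2 arrays) of the 48 tested decay factor genes at their brightest tested probe set, by role. Filled circles are coloured by the call of the fit over genes, open diamonds give the value with quantile scaling, and the dashed line is the median of all tested genes at -0.16. In the exosome core 7 of 8 genes lie below 0, and in CCR4-NOT the genes lie on both sides.

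Promoter windows of the members at the ends of this range are shown so that their sequence can be set beside their changes. They run from 250 bases before to 50 bases after the annotated start, from RefSeq on GRCm38.p6, and were taken for the 3 largest falls and the 2 largest rises among called genes with 1 window. Cnot7 and Pabpc1 have no entry in that table. Capitals mark matches, on either strand, to AAGATGGCG (YY1), GCGCNTGCG (NRF1), CCGGAAG (ETS factors), CCAAT (the CCAAT box), GGGCGG (the GC box) and TATAAA (the TATA box), which may touch or overlap.
Exosc2, lower, chr2:31670465-31670764, plus strand: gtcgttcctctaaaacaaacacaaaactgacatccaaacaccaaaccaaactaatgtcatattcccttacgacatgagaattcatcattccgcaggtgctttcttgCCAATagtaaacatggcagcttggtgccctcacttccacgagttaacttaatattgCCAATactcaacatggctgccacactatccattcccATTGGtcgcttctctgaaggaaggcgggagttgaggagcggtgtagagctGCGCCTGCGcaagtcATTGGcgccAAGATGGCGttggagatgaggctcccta
Zcchc8, lower, chr5:123720995-123721294, minus strand: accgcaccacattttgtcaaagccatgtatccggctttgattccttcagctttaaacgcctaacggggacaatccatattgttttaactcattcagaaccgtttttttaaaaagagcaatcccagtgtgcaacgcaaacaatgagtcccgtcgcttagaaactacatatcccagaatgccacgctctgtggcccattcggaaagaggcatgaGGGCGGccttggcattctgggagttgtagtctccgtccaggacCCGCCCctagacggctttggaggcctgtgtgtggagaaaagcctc
Pan2, lower, chr10:128303085-128303384, plus strand: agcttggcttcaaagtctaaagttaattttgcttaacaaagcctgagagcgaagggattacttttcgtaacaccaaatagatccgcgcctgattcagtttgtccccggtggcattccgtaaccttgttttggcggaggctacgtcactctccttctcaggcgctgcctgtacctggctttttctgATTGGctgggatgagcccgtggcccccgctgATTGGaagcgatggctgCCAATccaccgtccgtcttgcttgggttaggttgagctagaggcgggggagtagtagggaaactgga
Zcchc7, higher, chr4:44756309-44756608, plus strand: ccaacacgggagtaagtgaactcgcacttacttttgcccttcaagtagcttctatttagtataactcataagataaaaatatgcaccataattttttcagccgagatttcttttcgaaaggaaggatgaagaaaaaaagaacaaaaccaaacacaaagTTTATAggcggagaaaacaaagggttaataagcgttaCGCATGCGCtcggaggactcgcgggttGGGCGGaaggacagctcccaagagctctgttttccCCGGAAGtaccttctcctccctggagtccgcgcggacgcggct
Upf2, higher, chr2:5951219-5951518, plus strand: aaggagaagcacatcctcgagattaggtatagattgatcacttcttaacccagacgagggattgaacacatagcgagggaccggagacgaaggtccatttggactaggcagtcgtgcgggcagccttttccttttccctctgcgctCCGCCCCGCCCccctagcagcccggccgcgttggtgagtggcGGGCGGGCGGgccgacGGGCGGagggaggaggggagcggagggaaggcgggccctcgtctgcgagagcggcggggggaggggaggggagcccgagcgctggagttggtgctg

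Matches were counted over the 43 member genes with a window, 22 of which fell and 5 of which rose. The NRF1 letters were present in 17 genes (39.5%), against 9.68% of the 17492 protein-coding genes in the table (7.12% of all 27025 genes). Of these 7 were genes that fell and 3 were genes that rose. The GC box was present in 30 genes (69.8%), against 49.2% of protein-coding genes, and the ETS letters in 13 (30.2%), against 12.9%. By contrast the CCAAT box was found in 10 (23.3%), against 42.3%, and 8 of these 10 were among the 22 genes that fell, with Exosc2 and Pan2. The TATA box appeared in 1 gene, Zcchc7, against 14.8% of protein-coding genes. The YY1 letters were found in Exosc2, Mtrex, Cnot3 and Dcp1b (9.3%, against 2.14%), and in the Exosc2 window they lie after the start. The protein-coding genes include ones not tested on these arrays, and shares over the tested genes alone were not counted. These shares are a description, and no test was made.

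Most measured genes of the exosome core were lower in the knockdown. Of 8 tested core genes 7 fell and Exosc5 was higher, where 35.2% of all tested genes fell and 9.79% rose, and Exosc6 was too dim to test. The median log2 fold change was -0.43. With quantile scaling 5 of them fell and Exosc5 rose, where 22.6% and 17.7% of all genes did. Exosc1, Exosc2 and Exosc3 make up the cap of the complex, through which RNA enters. Exosc2 had a signal of 958.5 and 1024 in the knockdown, against 1801 and 1727 in the control, a difference of -0.82 ± 0.07 (adjusted p = 1.1e-06, limma). The knockdown arrays thus stood well below the control arrays, with no overlap. Exosc1 read 174 and 139 in the knockdown, against 249.9 and 269.5 in the control (-0.69 ± 0.12, adjusted p = 0.000672, limma), again without overlap, but its second tested probe set read 143 and 166 against 158 and 161 with the groups overlapping (-0.04 ± 0.12). Exosc3, the last cap protein, fell by 0.46 ± 0.11.

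In the ring below the cap, Exosc7 had the largest change, with 386 and 413 in the knockdown, against 637.5 and 676 in the control (-0.69 ± 0.08, adjusted p = 3.06e-05, limma). All of its knockdown values lay below all control values. Exosc9 fell by 0.41 ± 0.10. Exosc4 and Exosc8 fell by less, 0.25 each, and both lost their call when centred on the tested probe sets (-0.12 each) and with quantile scaling (-0.06 and -0.10). Exosc4 was lower at 2 of its 3 tested probe sets and Exosc8 at both of its 2. Exosc5, also a ring subunit, went the other way at 231 and 238 in the knockdown, against 209 and 157 in the control (0.34 ± 0.13). It passed in the fit over genes and narrowly missed in the fit over probe sets (adjusted p = 0.0545, limma). With spike-in scaling it was at 0.20 and did not pass.

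Of the nucleases that do the cutting, Exosc10 changed most. Exosc10, the RRP6 nuclease of the nuclear exosome, had 880.4 and 885 in the knockdown, against 1416 and 1470.4 in the control at its brightest probe set (-0.70 ± 0.07, adjusted p = 3.92e-06, limma). The 2 dimmer but still bright probe sets gave -0.92 and -0.74, both passing, and the faintest, with signals between 23.6 and 35.2, gave -0.04. Of all decay factors tested by 3 or more probe sets, Exosc10 and Cnot10 were the ones lower at 3. Dis3, the main processive nuclease, read 1009 and 991 in the knockdown, against 1147 and 1164 in the control, which is a small difference without overlap (-0.21 ± 0.07, adjusted p = 0.0263, limma). This call was lost when centred on the tested probe sets (-0.07), with quantile scaling (-0.04), without the intensity trend (adjusted p = 0.158, limma), with no filter on dim probe sets (adjusted p = 0.0534, limma) and without any 1 of the 4 arrays (-0.22 to -0.19). Its cytoplasmic relative Dis3l was at -0.26 ± 0.12 and did not pass. The nuclear cofactors C1d (0.00 ± 0.07) and Mphosph6 (-0.17 ± 0.08) did not pass either. C1d read 1374 and 1462 in the knockdown, against 1510.4 and 1338.5 in the control, with overlap between the groups.

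The adaptors that bring RNA to the exosome did not move together, even within 1 complex. Of 8 tested genes 4 fell, 2 rose and 2 did not pass, with a median of -0.26, beside 35.2% lower, 9.79% higher and a median of -0.16 over all genes. Mtrex, the helicase MTR4 that feeds RNA into the exosome, had 855 and 819 in the knockdown, against 1417.5 and 1309.8 in the control (-0.69 ± 0.07, adjusted p = 7.25e-06, limma). Zcchc8, its partner in the nuclear exosome targeting complex, read 250.2 and 244 in the knockdown, against 426 and 413 in the control (-0.73 ± 0.09, adjusted p = 4.89e-05, limma). Neither gene's groups overlapped. A faint second probe set of Zcchc8 gave -0.08 and did not pass. Rbm7, the RNA-binding protein of the same targeting complex, was higher, at 992 and 1074 in the knockdown, against 837 and 803 in the control (0.33 ± 0.07, adjusted p = 0.00323, limma). Zcchc8 and Mtrex were lower under all 5 scalings and Rbm7 higher under 4, since with spike-in scaling it was at 0.18 and did not pass. Rbm7 also missed in the fit without the trend of variance on intensity (adjusted p = 0.0714, limma). Its only probe set is of the _s_at kind, which can match more than 1 transcript. Rbm7 therefore has no value without such probe sets.

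Zcchc7, the RNA-binding protein of the TRAMP complex, which adds short tails to nuclear RNAs before exosome decay, rose with 575 and 641 in the knockdown, against 447 and 426 in the control (0.46 ± 0.09, adjusted p = 0.000981, limma). It was 1 of 3 genes higher under all 5 scalings. Its tailing polymerase Tent4b was at 0.20 ± 0.08 and did not pass, whereas the related polymerase Tent4a fell by 0.45 ± 0.11 at its brightest probe set and was at -0.12, not passing, at its second. Zfc3h1, of the poly(A) tail exosome targeting connection, was at -0.06 ± 0.13. In the cytoplasm the exosome depends on the SKI complex, whose helicase gene Skiv2l read 67.5 and 52.2 in the knockdown, against 101 and 104 in the control (-0.65 ± 0.16, adjusted p = 0.00561, limma). Without knockdown replicate 2, the lower of the knockdown arrays, Skiv2l was at -0.50 and did not pass (adjusted p = 0.0639, limma).

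CCR4-NOT, the main deadenylase, showed no common direction. Of 10 tested genes 4 fell, 2 rose and 4 did not pass, with a median of -0.05, where 35.2% of all genes fell and 9.79% rose. By probe sets 8 of 30 rose and 6 fell, where 9.73% of all tested probe sets rose and 25.8% fell. The balance turned with the scaling, as it shifted over all genes. With quantile scaling 2 genes fell and 5 rose, where 22.6% and 17.7% of all genes did. With spike-in scaling 5 fell and 1 rose, where 46.1% and 4.44% of all genes did. At the brightest probe sets on the deposited scale, both genes that rose, Cnot7 and Cnot6l, encode nucleases. The 4 that fell, Cnot3, Cnot9, Cnot10 and Cnot11, encode other subunits. This split depended on the choice of probe set. By the mean of a gene's probe sets Cnot2, not a nuclease gene, was higher (0.35) and the nuclease gene Cnot8 was lower (-0.22). These classes were not tested against each other.

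Cnot7, a nuclease subunit of the CAF1 type, had 2064.5 and 2108 in the knockdown, against 1187 and 1213.5 in the control at its brightest probe set (0.79 ± 0.06, adjusted p = 7.37e-07, limma). Its dimmest probe set, at 234 and 249.9 against 176 and 134, also rose (0.60 ± 0.13), while the one between gave 0.20 ± 0.08 and did not pass. The groups did not overlap at any of the 3, as at most tested member probe sets. The brightest is of the _s_at kind, which can match more than 1 transcript, and without such probe sets Cnot7 was at 0.20 and did not pass (adjusted p = 0.0592, limma). Cnot8, the paralog that takes the same place in the complex, read 422 and 442 in the knockdown, against 491 and 506 in the control (-0.20 ± 0.09) and did not pass at either of its probe sets. With spike-in scaling (-0.34) and as the mean of both probe sets (-0.22, adjusted p = 0.0497, limma) it was lower. The difference between the paralogs was not tested.

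Cnot6 and Cnot6l encode the second type of nuclease subunit, the CCR4 type. Cnot6l read 371.5 and 349 in the knockdown, against 304 and 261 in the control (0.34 ± 0.10, adjusted p = 0.0206, limma) and rose further at its second probe set, 139 and 149 against 87.2 and 81.9 (0.67 ± 0.13), while the remaining 2 were at 0.14 and 0.25 and did not pass. Its brightest probe set missed the threshold with spike-in scaling (0.19), without the intensity trend (adjusted p = 0.0931, limma), with no filter on dim probe sets (adjusted p = 0.0729, limma), without either knockdown replicate (0.29 and 0.38) and without control replicate 2 (0.23). Cnot6 read 1257 and 1262 in the knockdown, against 1171 and 1151 in the control at its brightest probe set, a difference of 0.12 ± 0.06 that did not pass. With quantile scaling it was at 0.28 and passed. Of its 4 probe sets 1 rose on the deposited scale, with 722.5 and 757.5 against 572 and 553 (0.39 ± 0.08), and the others were at -0.02 and 0.19.

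Among the other subunits, Cnot10, part of a module with Cnot11, had 189 and 182 in the knockdown, against 271 and 243 in the control (-0.44 ± 0.11, adjusted p = 0.00674, limma), and all 3 of its tested probe sets fell. Without control replicate 1 it was at -0.36 and did not pass. Cnot9, the subunit that docks silencing proteins such as those bound to microRNAs, read 740.5 and 662 in the knockdown, against 984 and 868 in the control (-0.39 ± 0.08, adjusted p = 0.00251, limma). Cnot3, of the NOT module, fell by 0.35 ± 0.10 and Cnot11 fell by 0.27 ± 0.09, each at the brightest probe set alone, with the dimmer ones at 0.26 for Cnot3 and at -0.02 and -0.21 for Cnot11. Cnot10 and Cnot9 were lower under all 5 scalings in the fit over genes. In the fit over probe sets both just missed with quantile scaling (-0.27 and -0.22, adjusted p = 0.0541 and 0.0611, limma), and Cnot9 missed without the intensity trend (adjusted p = 0.07, limma).

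Cnot2, the partner of Cnot3, differed in direction. Its brightest probe set read 742 and 809.7 in the knockdown, against 685 and 674.5 in the control and did not pass (0.18 ± 0.08). The next 3 all rose, by 0.42, 0.49 and 0.32. None of the 4 overlapped between the groups, as at most tested member probe sets. The mean of its probe sets was 0.35 and passed (adjusted p = 0.00414, limma), as did the brightest with quantile scaling (0.37). Cnot4, a ubiquitin ligase loosely tied to the complex, did not pass at any of 4 tested probe sets, which ranged from -0.24 to 0.25.

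**Figure D2:**
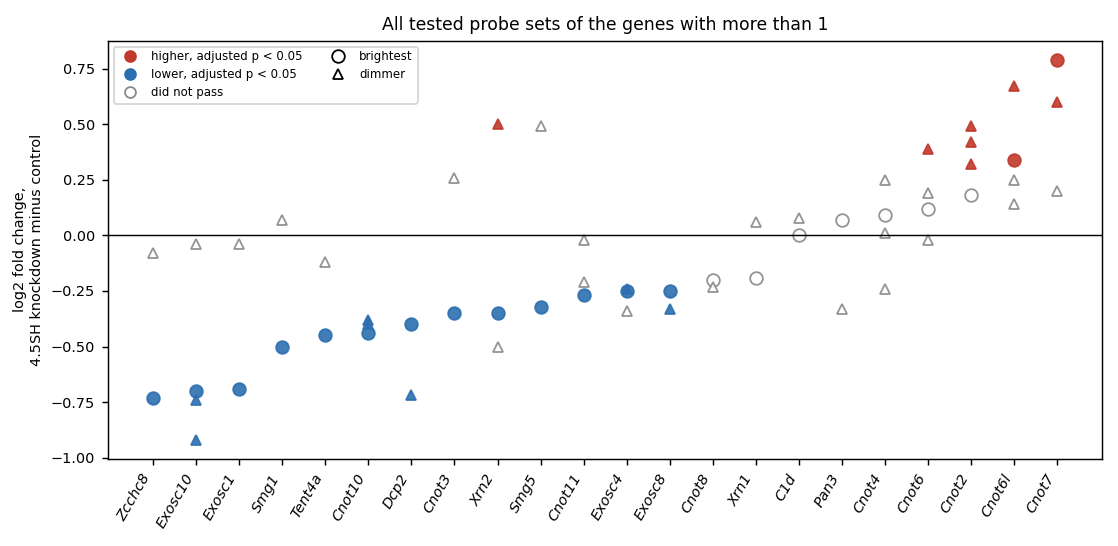
Log2 fold change (4.5SH knockdown minus control) of every tested probe set of the 22 decay factor genes with more than 1, ordered by the brightest one (circles; dimmer ones are triangles). Filled symbols passed an adjusted p of 0.05 in the fit over probe sets. Xrn2 is the 1 gene called in both directions, and Exosc10, Cnot10 and Cnot2 each have 3 probe sets called the same way.

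Of the PAN2-PAN3 deadenylase and the protein on the tail, Pan2 fell, Pabpc1 rose and Pan3 did not pass. The difference between them was not tested. Pan2, the nuclease that starts tail shortening, had 518 and 579 in the knockdown, against 887.5 and 939.7 in the control at its single probe set (-0.72 ± 0.08, adjusted p = 1.63e-05, limma). Pan3, the pseudokinase that recruits it, read 111 and 115.5 in the knockdown, against 111 and 104 in the control at the brighter of its tested probe sets, with overlap, and did not pass at either (0.07 and -0.33). Pabpc1, the cytoplasmic poly(A)-binding protein that covers the tail and binds both deadenylase complexes, was the brightest member and rose, at 5752 and 5736 in the knockdown, against 3652 and 3254 in the control (0.73 ± 0.06, adjusted p = 7.37e-07, limma). Both Pan2 and Pabpc1 were called under all 5 scalings, with ranges from -0.86 to -0.54 for Pan2 and from 0.59 to 0.87 for Pabpc1.

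**Figure D3:**
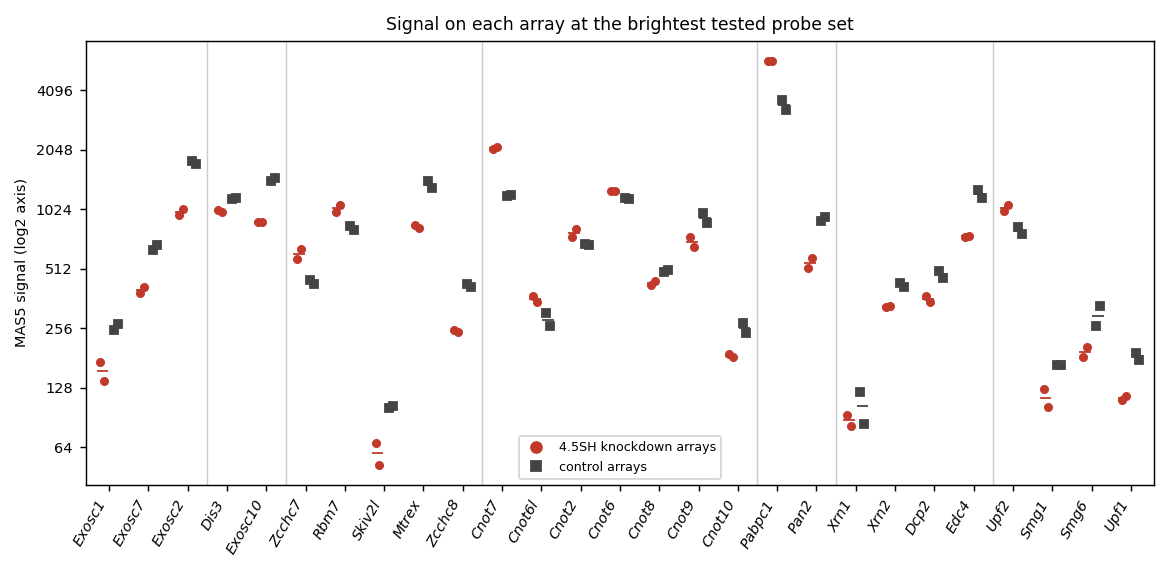
MAS5 signal on each of the 4 arrays (log2 axis) at the brightest tested probe set of 27 decay factor genes, with the 2 knockdown arrays to the left of the 2 control arrays and bars at the group means. Heights of different genes are not comparable. Pabpc1 lies between 5736 and 5752 in the knockdown and between 3254 and 3652 in the control. Xrn1 is the gene here whose groups overlap, and many of the others were chosen among called genes without overlap.

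For decapping and 5′ decay, 3 of 7 tested genes fell, Edc4, Dcp2 and, by its brightest probe set, Xrn2. The other 4 did not pass. This share and the median of -0.22 are near the 35.2% lower and the median of -0.16 over all genes. Edc4, the scaffold that links the decapping enzyme to its activator, had 743 and 752 in the knockdown, against 1274 and 1169 in the control (-0.69 ± 0.07, adjusted p = 8.42e-06, limma). Dcp2, the decapping enzyme itself, read 371 and 347 in the knockdown, against 500.0 and 457 in the control (-0.40 ± 0.09, adjusted p = 0.0038, limma), and its dimmer probe set fell as well, with 43.1 and 54.8 against 92.7 and 88.9 (-0.72 ± 0.16). The arrays of the groups were separate at all 3 of these probe sets, as at most tested member probe sets. Dcp2 missed with quantile scaling in the fit over probe sets (-0.22, adjusted p = 0.0623, limma) and without the intensity trend (adjusted p = 0.0503, limma). Its activator genes Dcp1a (-0.07 ± 0.17) and Dcp1b (-0.22 ± 0.15) were dim, with signals between 48.6 and 89.8, and did not pass, nor did the enhancer Edc3 (0.13 ± 0.11).

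Of the exonucleases that digest from the 5′ end, cytoplasmic Xrn1 read 93 and 81.8 in the knockdown, against 122 and 83.9 in the control with overlap (-0.19 ± 0.17), and its second probe set gave 0.06 ± 0.21. Neither passed. Nuclear Xrn2, which also acts in transcription termination, was discordant. Its brightest probe set fell, with 329 and 331 in the knockdown, against 434 and 414 in the control (-0.35 ± 0.09, adjusted p = 0.00807, limma), while the second rose, with 122 and 146 against 72.1 and 110.1 (0.50 ± 0.17, adjusted p = 0.034, limma), and the faintest gave -0.50 ± 0.20 and did not pass. The mean of the 3 was -0.12 (adjusted p = 0.457, limma). The brightest probe set of Xrn2 missed with quantile scaling (-0.17), centred on the tested probe sets (-0.21), without the intensity trend (adjusted p = 0.0535, limma) and without control replicate 1 (-0.32).

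In nonsense-mediated decay 5 of 7 tested genes fell, 1 rose and 1 did not pass, with a median of -0.43, where 35.2% of all tested genes fell and 9.79% rose. Under quantile scaling 3 fell and 1 rose, where 22.6% and 17.7% of all genes did. Upf1, the helicase at the centre of the pathway, had 110.3 and 116 in the knockdown, against 191 and 177 in the control (-0.63 ± 0.12, adjusted p = 0.00115, limma). Smg1, the kinase that phosphorylates UPF1, read 125 and 102 in the knockdown, against 167 and 167 in the control (-0.50 ± 0.13, adjusted p = 0.00879, limma), and Smg6, the endonuclease that cuts the target, read 182 and 204.5 in the knockdown, against 263 and 330.3 in the control (-0.57 ± 0.12, adjusted p = 0.00239, limma). None of these overlapped between the groups, as at most tested member probe sets. Smg1 rests on 1 of its 2 tested probe sets: the other read 63.1 and 59.8 against 57.9 and 57.4 (0.07 ± 0.16) and the mean of both did not pass (-0.21). Without knockdown replicate 2 Smg1 was at -0.37 and did not pass either, and it missed with quantile scaling in the fit over probe sets (-0.36, adjusted p = 0.0577, limma).

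The adaptor Smg5 fell by 0.32 ± 0.09 at the brighter of its probe sets (the faint one was at 0.49 and did not pass), and Smg8, which restrains the SMG1 kinase, fell by 0.43 ± 0.14. Both lost their call when centred on the tested probe sets (-0.19 and -0.30) and with quantile scaling (-0.14 and -0.31). Smg9, the partner of Smg8, overlapped between groups at 372 and 343 in the knockdown, against 356 and 444 in the control and did not pass (-0.15 ± 0.11). Upf2, which bridges UPF1 to the exon junction complex, was the exception, with 1000.1 and 1073 in the knockdown, against 828 and 765 in the control (0.37 ± 0.07, adjusted p = 0.00148, limma). With spike-in scaling Upf2 was at 0.23 and did not pass, and it missed in the fit without the intensity trend (adjusted p = 0.0569, limma). Upf1 and Upf2, which act together, thus changed in opposite directions on the deposited scale.

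Scaling set how many genes were called but turned none of the 48 from a called rise to a called fall. Under all 5 scalings 18 genes were lower and 3, Cnot7, Pabpc1 and Zcchc7, were higher. Another 6 passed under none of them, and the call of 21 depended on the scaling. The genes lower throughout were Exosc1, Exosc2, Exosc3, Exosc7, Exosc9, Exosc10, Mtrex, Zcchc8, Skiv2l, Tent4a, Cnot9, Cnot10, Pan2, Dcp2, Edc4, Upf1, Smg1 and Smg6. With quantile scaling 18 decay factor genes fell (37.5%) and 12 rose (25%), against 22.6% and 17.7% of all genes. After centring on all probe sets 26 fell (54.2%) and 9 rose (18.8%), against 32.4% and 10.4%, and with the tested probe sets as the centre 20 fell (41.7%) and 12 rose (25%), against 24.2% and 17%. With spike-in scaling 30 fell (62.5%) and 3 rose (6.25%), against 46.1% and 4.44%. The median log2 fold change of the decay factors was -0.11 with quantile scaling and -0.40 with spike-in scaling, and that of all genes -0.04 and -0.31.

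**Figure D4:**
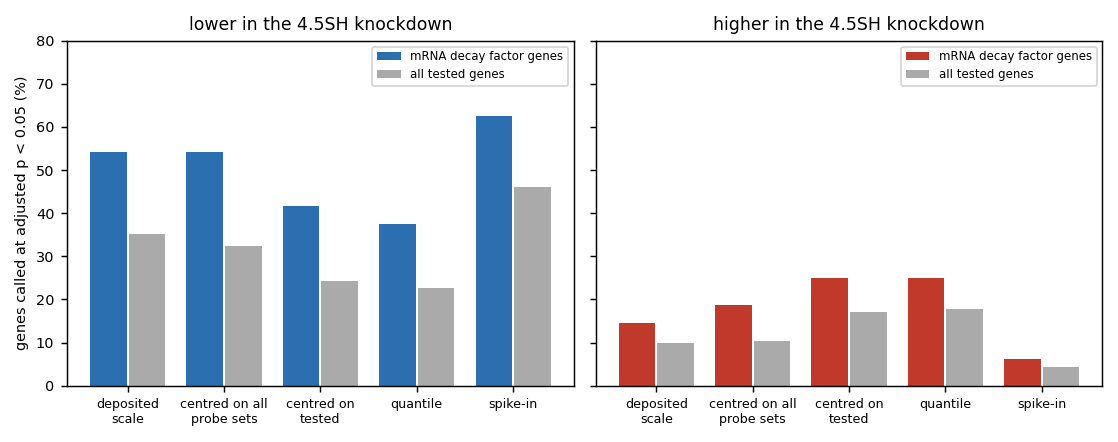
Percentage of genes called lower (left) or higher (right) in the 4.5SH knockdown at a limma adjusted p of 0.05, under 5 scalings of the arrays, for the 48 decay factor genes (coloured) and all 11804 tested genes (grey). The lower share of decay factors runs from 37.5% with quantile scaling to 62.5% with spike-in scaling and the grey bars run with it.

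Further genes of these pathways were taken from lists drawn up by role. Of 71 listed genes 64 were tested, and 32 fell, 10 rose and 22 did not pass, beside 35.2% lower and 9.79% higher over all genes. Their median was -0.20 and that of all genes -0.16. Genes listed under the exosome and the rescue of stalled ribosomes had 5 falls and 4 rises among 12. With quantile scaling these were 3 and 4, where 22.6% of all genes fell and 17.7% rose. Srrt, the cap-associated protein ARS2, which hands RNAs to the exosome adaptors, read 736 and 759 in the knockdown, against 1489 and 1446 in the control (-0.96 ± 0.07, adjusted p = 1.26e-08, limma). The cytoplasmic nuclease gene Dis3l2 was dim, at 28.9 and 20 in the knockdown, against 51.4 and 45.5 in the control, and fell by 0.68 ± 0.21. Ncbp2, of the nuclear cap-binding complex, rose by 0.45 ± 0.10, and Wdr61, a SKI complex subunit, by 0.31 ± 0.06, whereas Ttc37, the scaffold that joins Wdr61 to Skiv2l, fell by 0.49 ± 0.12.

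Among 20 further deadenylation genes 7 fell, 4 rose and 9 did not pass, beside 35.2% lower and 9.79% higher over all genes. With quantile scaling 3 fell and 9 rose, where 22.6% and 17.7% of all genes did. Parn, a poly(A)-specific nuclease outside both complexes, had 172 and 201 in the knockdown, against 372 and 376 in the control (-0.95 ± 0.10, adjusted p = 1.59e-06, limma), and the nuclear poly(A)-binding protein Pabpn1 fell by 0.63 ± 0.05. Btg1, an antiproliferative protein that binds the CAF1 nucleases, rose by 0.66 ± 0.12 and Paip1, which binds PABPC1, by 0.53 ± 0.10. Of 15 other decapping genes 10 fell, 2 rose and 3 did not pass, where 35.2% of all genes fell and 9.79% rose. Their median was -0.38, and with quantile scaling 7 fell, where 22.6% of all genes did. The 10 falls included Lsm1, Lsm3, Lsm4, Lsm6 and Lsm7, members of the ring that binds deadenylated 3′ ends. All of them were lower under each of the 5 scalings, with Lsm6 at -0.66 ± 0.06. Lsm2, of the same ring, was at -0.23 ± 0.10 and did not pass, and Lsm5 had no probe set analysed here. Dcps, the scavenger of released caps, fell by 0.72 ± 0.09. The helicase gene Ddx6 (0.34 ± 0.09) and the decapping coactivator gene Pnrc2 (0.48 ± 0.08) rose. Of the genes named here from these lists, Ddx6 and Wdr61 lost their call with spike-in scaling (0.20 and 0.17). Ncbp2, Parn, Lsm6 and Pnrc2 were read at probe sets of the _s_at or _x_at kind, which can match more than 1 transcript. So were Gspt1, Rnps1 and Gadd45b below.

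Of 7 tested genes listed under the exon junction complex and translation termination, 4 fell, Casc3, Nbas, Rbm8a and Rnps1, and 3 did not pass, where 35.2% of all genes fell. With quantile scaling 3 fell and 1 rose, where 22.6% and 17.7% of all genes did. The termination factor genes Etf1 (-0.12 ± 0.09) and Gspt1 (0.16 ± 0.08) did not pass, and Gspt1 rose with quantile scaling (0.33). Casc3, a peripheral junction protein, was at -0.65 ± 0.10 and Nbas, which acts in nonsense-mediated decay at the endoplasmic reticulum, at -0.60 ± 0.11. Transcripts known as targets of nonsense-mediated decay were read as well. Of 10 tested 6 fell and 4 did not pass, with a median of -0.26. Of all genes 35.2% fell and 9.79% rose, with a median of -0.16. With quantile scaling 5 of the targets fell and 2 rose, where 22.6% and 17.7% of all genes did. Gadd45b had 1271 and 1209 in the knockdown, against 1846 and 1836 in the control (-0.56 ± 0.06, adjusted p = 1.2e-06, limma) and Ddit3 fell by 0.56 ± 0.05. The noncoding Gas5 read 6918 and 7144 in the knockdown, against 8455 and 8534 in the control (-0.27 ± 0.04), and Snhg1 8899.9 and 8851 against 9148 and 9069.6 (-0.04 ± 0.04), which did not pass. Abundance on an array does not separate synthesis from decay, and half-lives were not measured.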

How the data were processed

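Biotinylated cRNA from cytoplasmic poly(A)+ RNA was hybridised to 4 arrays, 2 per group, per the labels' protocols. Linear intensities, 1 per probe set, were made by the authors with MAS5 before they were deposited, per the submitters' processing notes. The sources used here do not state the scaling target, and the number of arrays limits precision. Probe sets were named where the platform annotation gave 1 symbol (34945 of 45037 without controls), updated by Entrez identifier to RefSeq. Signals were taken as log2(signal + 16). Probe sets whose mean over 4 arrays reached the median entered limma 3.58.1 (R 4.3.3), first tested on simulated data. The fit used eBayes with a trend on mean intensity and had 13.6 degrees of freedom in all. Two-sided p-values were adjusted by Benjamini-Hochberg over all probe sets or all genes. They rest on variance shared across probe sets, since the smallest p of an exact permutation test on 2 and 2 arrays is 0.333. Figures used matplotlib 3.10.9 in Python 3.11.15.

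The members, lists and tests were chosen with earlier results of these data known, so lists are described by counts and medians, with no test. Values of single arrays and fits are given for up to 3 of the largest changes of each role. These were taken among genes called in the fit over probe sets and without overlap between the groups, which left out Dis3l. Also given are called members that oppose their role, central enzymes, and genes whose probe sets disagree. From each further list, the 2 largest rises and falls were named, and other genes where they are partners. Alternatives were pseudocounts of 1 and 64, 4 other scalings (quantile, centring on all or on the tested probe sets, and centring on 9 spike-in probe sets), the brightest 25% alone, no filter on dim probe sets, a replicate block, a fit without the trend, probe sets without the endings _x_at and _s_at, the mean of a gene's probe sets, and leaving out each array.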

Additional observations from a re-analysis of the deposited data

How the results depend on the processing

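Counts depended on the scaling. On the deposited scale 33 member probe sets were lower and 13 higher. Quantile scaling gave 16 and 21, centring by the tested probe sets 21 and 20, and spike-in scaling 41 and 6. Member genes higher were 7, 12, 12 and 3 in that order. Of all tested probe sets the same 4 scales gave 5810, 3748, 3942 and 8002 lower, and 2192, 3816, 3788 and 1033 higher. Median log2 fold changes of members were -0.19, -0.04, -0.05 and -0.33, and of all tested probe sets -0.11, 0.00, 0.02 and -0.25.

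Without the intensity trend 19 member probe sets were lower and 6 higher (3844 and 1379 of all). With no filter 1241 of all probe sets were higher, and the medians were -0.08 for members and -0.05 for all. The median of all was -0.07 with a pseudocount of 64 and -0.16 for the brightest 25%. The cause of these shifts was not tested. Leaving out each array gave 22 to 29 lower and 10 to 13 higher member probe sets, 21 to 27 lower and 5 to 7 higher member genes, and 4319 to 5286 lower and 1207 to 1982 higher among all, the 1207 without knockdown replicate 2.

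Deviations of same-numbered arrays were not correlated (r = 0.00171 across probe sets). This value cannot tell whether same-numbered arrays were prepared together, since a shared preparation need not leave a shared deviation. With a replicate block 35 member probe sets were lower and 14 higher, and 26 and 7 member genes. The 27 genes in the plot of signals by array were refitted under the alternatives. Of 429 such values 386 kept their side of the threshold, 34 lost the call and 9 gained one, and no called value changed sign.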
